A study of Mus musculus with 41 samples.

Results

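Among 41 mammary tumors profiled in the series, 29 had epithelial histology (labelled p53 variable) and 12 had spindle cell histology. The 29 epithelial tumors were ordered by a basal keratin score, the mean over Krt5, Krt14 and Krt17 of the log2 ratio of tumor to reference signal, and the 10 tumors of highest score (keratin-high) were set against the 10 of lowest score (keratin-low). The 9 tumors between them entered neither group. The groups were thus selected on measured values, and the 3 score genes were left out of every test and count.

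Krt5 and Krt14 form the intermediate filaments of the basal layer in stratified and mammary epithelia, and Krt17 is a keratin of basal and stressed keratinocytes and of basal-like breast carcinoma. In the mammary duct, basal cells sit on the basement membrane through hemidesmosomes, contract under oxytocin, and enclose luminal cells that carry Krt8 and Krt18. Squamous differentiation is the program in which cells that leave the basal layer switch to suprabasal keratins and build a cornified envelope.

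All tumors arose from Trp53-null BALB/c mammary duct fragments of 4 donors, spread equally over the diets and transplanted into cleared fat pads of wild-type female BALB/c recipients at 3 weeks of age, so host stroma keeps Trp53. Recipients ate a low-fat diet (LFD) or a high-fat diet (HFD) throughout, or were switched at 10 weeks from HFD to LFD (HFD-LFD) or from LFD to HFD (LFD-HFD), and tumors are labelled early or late by latency. The keratin-high group held 3 HFD, 4 HFD-LFD, 2 LFD and 1 LFD-HFD tumors, and the keratin-low group held 2 HFD, 3 HFD-LFD, 3 LFD and 2 LFD-HFD tumors. Early tumors numbered 4 of 10 in the keratin-high and 7 of 10 in the keratin-low group, with a two-sided Fisher's exact p of 0.37 (1 after Benjamini-Hochberg adjustment over the 4 label tests). Regimen gave an exact p of 1, HFD before the switch (7 against 5 tumors) 0.65, and HFD after it (4 against 4) 1, all with an adjusted p of 1. None of these label counts differed at this number of tumors, which does not show that they are alike. The scanner files and the processed matrix carry different names for 3 HFD tumors (MSU_40R4A, MSU_57R and MSU_65R), of which MSU_65R is keratin-low, and with the names of the matrix the exact p for onset was 0.66. Tumors MSU_117L and MSU_117R, both keratin-high, share a label number, as do MSU_11L (keratin-high) and MSU_11R (keratin-low). The keratin-high MSU_56R shares its number with the spindle cell tumor MSU_M56LA. Whether the tumors of each pair came from 1 mouse is not given.

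Each array compared 1 tumor with Universal Mouse Reference RNA, and values below are log2 ratios of tumor to reference after background correction and loess normalization, so that a difference of 1 is a doubling. The share of spots well above background was 64.4% to 94.9% in keratin-high and 52.4% to 92.6% in keratin-low tumors. Spots marked as outliers made up 22% of the MSU_60L array, 8.04% of MSU_122Rb and 3.50% of MSU_42L4B, and were left missing. As a result MSU_60L lacked 47 of the 94 genes called below, and its 3 keratin spots were among those marked, so its place in the keratin-high group rests on marked spots. Where n is 9 in the keratin-high group, MSU_60L is usually the missing tumor. The epithelial markers Epcam, Krt8, Krt18 and Cdh1 were well above background on all 20 arrays, with differences between the groups of -0.09 to -0.75 that did not pass the test (adjusted p 0.50 to 0.99). Trp53 spanned -0.05 to 1.41 (median 0.43) in keratin-high tumors and -1.33 to 1.25 (median -0.06) in keratin-low tumors. The ranges overlapped, and the difference of 0.62 had an adjusted p of 0.43. Its probe also reads host cells, and whether it lies in the deleted part is not given in the sources used here. P-values measure the spread between these tumors. In bulk tumor RNA, fewer cells of a type and less RNA per cell cannot be told apart.

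The score ran from -0.35 to 2.37 (median 1.04) in keratin-high tumors and -3.42 to -1.24 (median -2.10) in keratin-low tumors. The highest scores were those of MSU_17R (2.37), MSU_66L (1.96), MSU_56R (1.63), MSU_117R (1.43) and MSU_117L (1.29). At the edges of the groups, MSU_60L stood at -0.35 just inside and MSU_57R at -0.54 just outside, and MSU_65R at -1.24 just inside and MSU_40R4A at -1.17 just outside. No clear gap separated members from neighbours at either edge. Inside the keratin-high group the score fell from 0.67 in MSU_101L4A to -0.09 in MSU_110R. MSU_110R, MSU_122Rb (-0.12) and MSU_60L had scores below the reference. Krt5 had the narrowest range in keratin-low tumors, from -3.61 to -2.60, whereas Krt14 there ranged from -3.03 to 0.32. Over the 29 tumors the 3 keratins correlated at a Pearson r of 0.778 (Krt5 and Krt14), 0.894 (Krt5 and Krt17) and 0.884 (Krt14 and Krt17), a description over tumors that share reference and slides. Spindle cell tumors spanned -3.37 to 3.32, and MSU_M33R (3.32) and MSU_M84R (2.91) exceeded every epithelial tumor.

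**Figure D1:**
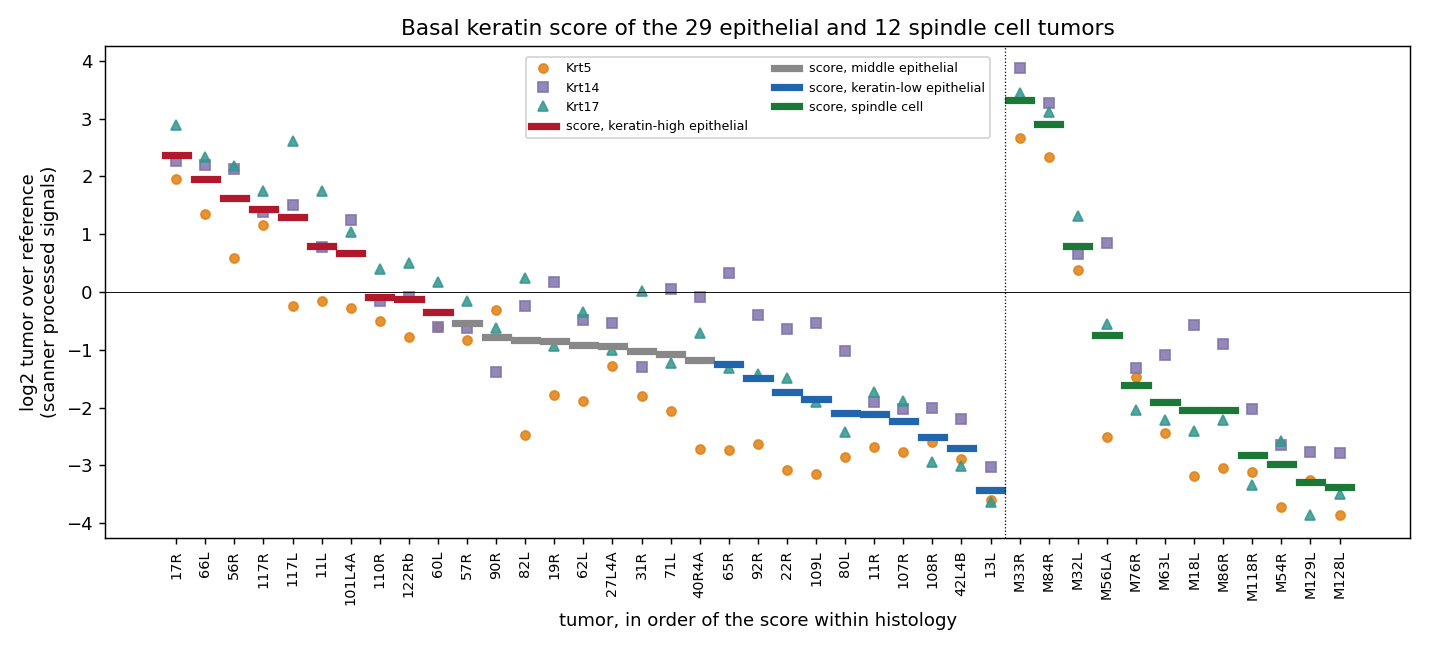
Log2 ratios of Krt5, Krt14 and Krt17 (points) and their mean, the keratin score (bars), in each of the 41 tumors, from the scanner's processed signals, with the prefix MSU_ of the tumor names left off, ordered by score within the 29 epithelial tumors and the 12 spindle cell tumors. Scores fall from 2.37 to -3.42 across the epithelial tumors, and 2 spindle cell tumors lie above all of them.

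Several genes that anchor basal cells, specify them or let them contract were higher in keratin-high tumors. Of 24554 genes tested with limma, 75 (0.305%) were higher in keratin-high tumors and 19 (0.0774%) lower, at an adjusted p under 0.05, and 2258 had an unadjusted p under 0.05. When arrays were centred on their medians instead of by loess, the counts were 77 and 2, which moved the share of higher genes among those called from 79.8% to 97.5%. The 2 groups did not overlap for 18 genes (0.0733%). The median difference over all genes was 0.01. Of the 24554 genes, 12597 had a positive difference. This count, the 2258 at an unadjusted p under 0.05 and the shares called are the background for the list counts below. The score and all other genes were read from the same arrays. On each of the 7 slides that held both groups, 19 of the 20 tumors in all, the genes called higher had a median within-slide difference of 0.74 to 2.17 and the genes called lower one of -1.22 to -0.45, which describes the same tumors and is no second test. With slide as a fixed block in limma 54 genes were higher and 13 lower, and 47 of the 94 genes called above passed. Among the called genes chosen by size of difference or rank in a list, Sostdc1, Plch2, Irx4, Rspo1, Ly6d, Krt15, Jag1, Cnn1, Acta2, Sfn, Pgr, Met, Capza2, Prxl2a, Shf, Sfxn5, Prtn3, Trim46 and Cox4i1 then missed the threshold, with adjusted p-values from 0.0512 for Met to 0.153 for Shf.

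The largest difference was that of Col17a1, the transmembrane collagen of the hemidesmosome. It spanned -0.50 to 3.42 (median 1.23) in keratin-high tumors and -3.40 to -1.56 (median -2.91) in keratin-low tumors. Every keratin-high tumor lay above every keratin-low tumor, and the difference was 3.84 ± 0.41 (SE, n = 10 and 10, adjusted p 7.37e-05). The middle tumors split, with 1.59 in MSU_90R and 1.46 in MSU_57R against -3.51 in MSU_82L, -2.93 in MSU_71L and -2.61 in MSU_40R4A, although MSU_82L and MSU_90R differed little in score (-0.82 and -0.77). Trim29, a tripartite motif protein of stratified epithelia, had the smallest adjusted p. Its values were -1.74 to 0.88 (median 0.07, n = 9) in keratin-high and -4.75 to -3.32 (median -4.25) in keratin-low tumors, without overlap, and differed by 3.77 ± 0.31 (SE, adjusted p 4.71e-06). Of the middle tumors, MSU_57R (-0.15) and MSU_90R (-0.17) lay among the keratin-high values and MSU_82L (-3.98) and MSU_40R4A (-4.06) among the keratin-low ones.

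Promoter sequence is shown for Col17a1 and for 3 other genes without overlap between the groups: Cbr2, a carbonyl reductase (difference 1.99, adjusted p 0.000102), Mir205hg, the host transcript of a microRNA of basal epithelia (2.35, adjusted p 0.000126), and Padi3, a peptidylarginine deiminase of the hair follicle (2.87, adjusted p 0.00135). They were taken by smallest p among the genes called higher that had a promoter sequence, a choice that uses their values. Cbr2 and Mir205hg are outside the naming rule of the other genes. The 250 bases before each annotated start are given from RefSeq (GRCm38.p6), 5′ to 3′ on the gene's strand, and capitals mark any match to CACCTG (the E-box that Snai factors can bind), to GCCNNNGGC (the palindrome that Tfap2 factors bind), or to TATAAA, on either strand:
Col17a1 (chr19:47692043-47692292, minus strand): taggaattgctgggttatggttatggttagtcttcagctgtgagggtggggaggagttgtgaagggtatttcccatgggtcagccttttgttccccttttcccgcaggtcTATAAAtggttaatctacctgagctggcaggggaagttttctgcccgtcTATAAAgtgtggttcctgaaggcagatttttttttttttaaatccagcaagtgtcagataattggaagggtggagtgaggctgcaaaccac
Cbr2 (chr11:120732022-120732271, minus strand): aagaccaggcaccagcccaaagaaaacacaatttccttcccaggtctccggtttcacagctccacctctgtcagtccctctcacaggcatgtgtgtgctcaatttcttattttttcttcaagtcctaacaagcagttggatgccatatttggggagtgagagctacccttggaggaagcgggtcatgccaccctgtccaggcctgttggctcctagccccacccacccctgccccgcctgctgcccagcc
Mir205hg (chr1:193510211-193510460, minus strand): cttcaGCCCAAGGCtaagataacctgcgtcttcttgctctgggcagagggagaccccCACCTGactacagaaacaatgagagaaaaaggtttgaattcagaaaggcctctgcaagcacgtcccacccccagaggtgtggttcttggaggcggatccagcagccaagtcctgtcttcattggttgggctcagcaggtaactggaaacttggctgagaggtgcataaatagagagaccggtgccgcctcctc
Padi3 (chr4:140810649-140810898, minus strand): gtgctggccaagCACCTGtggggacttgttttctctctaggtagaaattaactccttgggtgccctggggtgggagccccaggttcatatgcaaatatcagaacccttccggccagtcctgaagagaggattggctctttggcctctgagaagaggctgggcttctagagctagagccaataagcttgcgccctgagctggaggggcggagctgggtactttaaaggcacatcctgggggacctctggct
The Col17a1 window held 2 TATAAA matches and neither other motif, Mir205hg held 1 CACCTG and 1 GCCNNNGGC, Padi3 held 1 CACCTG, and Cbr2 held none of the 3. Of the 67 genes called higher that carry a gene symbol, 48 matched the promoter table, and 8.33% of these held CACCTG against 16.4% of the 14828 matched genes tested. GCCNNNGGC was present in 22.9% against 17.9%, and TATAAA in 12.5% against 9.7%. These letters describe the windows only, and no match says nothing about the factor.

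**Figure D2:**
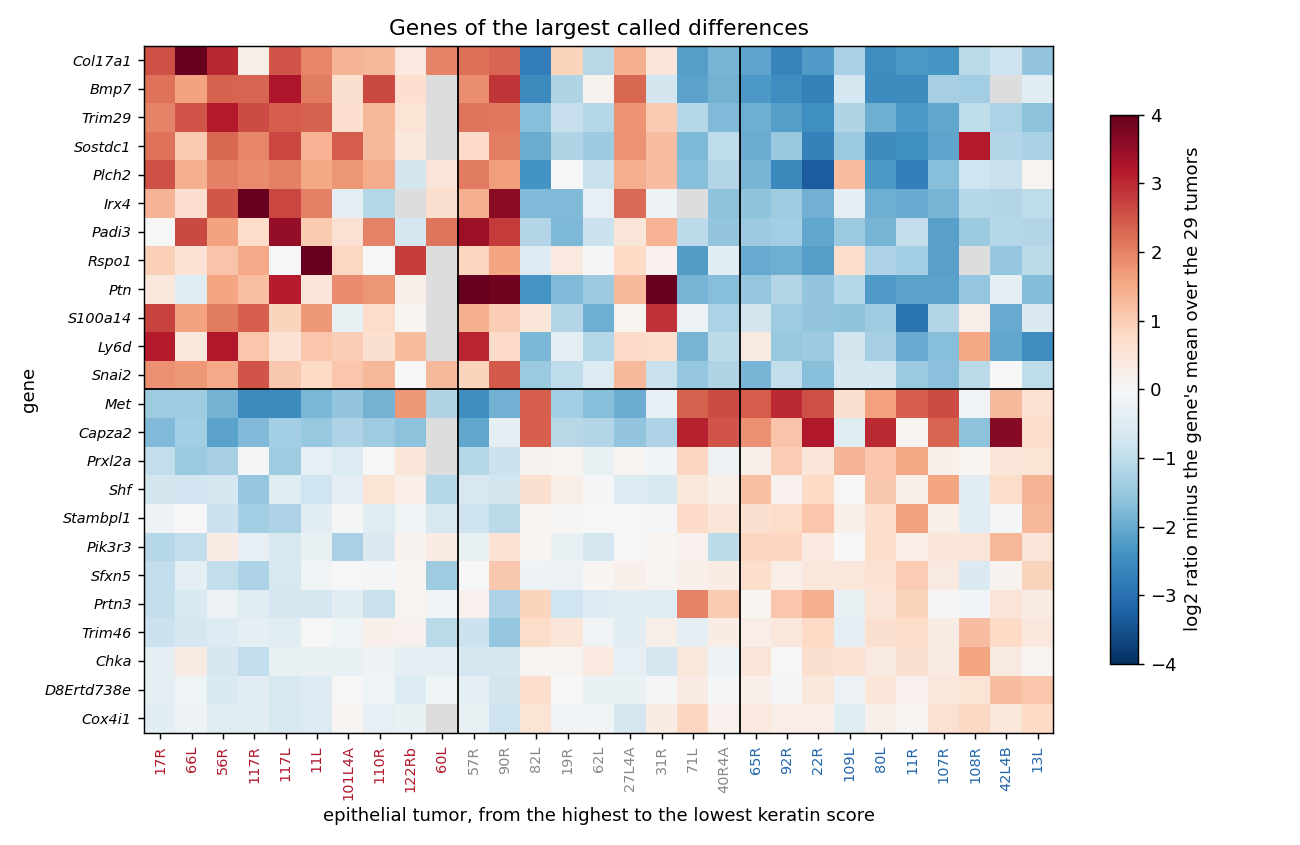
Log2 ratios, each gene centred on its mean over the 29 epithelial tumors, for the 12 genes called higher and the 12 called lower with the largest differences among symbols that are not Rik, Gm or LOC names; rows are genes, columns are tumors (prefix MSU_ left off) from highest to lowest keratin score, black lines bound the 2 groups and grey cells are missing. Col17a1, Bmp7 and Trim29 separate the outer groups completely, and middle tumors carry either pattern.

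Cell adhesion genes of the basal layer mostly had positive differences. In a list of 20 genes of hemidesmosomes, laminins, desmosomes and basal cadherin, 3 were called higher and none lower, 18 differences were positive and the median was 0.72. Within slides that median ranged from 0.21 to 1.49, the lowest on the slide of MSU_60L and MSU_42L4B, where only 11 of the 20 could be compared. The called members were Col17a1, Perp and Krt15. Perp, a tetraspan protein of desmosomes, spanned -1.20 to 1.31 (median -0.39) in keratin-high and -2.87 to -1.22 (median -2.27) in keratin-low tumors, without overlap (difference 2.19 ± 0.34 SE, adjusted p 0.00504). Krt15, a keratin of basal and follicle stem cells, differed by 1.73 (adjusted p 0.0349), and its ranges of -2.88 to 0.02 and -3.63 to -2.79 overlapped. It missed the threshold when 1 tumor was left out in 12 of 20 cases, and as a type I keratin that shares sequence with Krt14 and Krt17 its value is uncertain. Lama3 and Lamb3, chains of the laminin that hemidesmosomes bind, had differences of 1.5 (adjusted p 0.0648) and 0.73 (adjusted p 0.69). The integrin subunits of the hemidesmosome, Itga6 and Itgb4, differed by 0.46 (adjusted p 0.61) and 0.10 (adjusted p 0.98), and none of these 4 passed the test. Averaged over the list, each keratin-high tumor lay at or above 0.09 and each keratin-low tumor at or below -0.08. Lama1, a laminin chain outside the list and named for its lack of overlap, ranged from -0.32 to 2.19 in keratin-high and from -2.21 to -1.12 in keratin-low tumors (difference 2.26, adjusted p 0.000286).

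Among 15 transcription factors and signalling genes of basal cells, 4 were called higher and none lower, 13 were positive and the median difference was 1.27. Within-slide medians were 0.13 to 1.76, the lowest on the slide of MSU_60L and MSU_42L4B, where 13 of the 15 could be compared. Snai2, the zinc finger repressor of the basal lineage, spanned -0.88 to 1.64 (median 0.43) in keratin-high and -2.73 to -0.86 (median -1.93) in keratin-low tumors. The ranges met at their edges, and the difference was 2.44 ± 0.27 (SE, n = 10 and 10, adjusted p 7.37e-05). Irx4, an Iroquois homeobox factor, differed by 2.88 (adjusted p 0.0189), and its keratin-high values reached from -1.63 to 4.09, wider than the -2.51 to -0.86 of keratin-low tumors. Tbx3, a T-box factor of mammary development, differed by 1.68 (adjusted p 0.0320), and Jag2, a Notch ligand, by 1.37 (adjusted p 0.0174). Trp63, the p53 family member that specifies basal epithelium, ranged from -0.36 to 0.92 in keratin-high and from -0.17 to 0.47 in keratin-low tumors and differed by 0.08 (adjusted p 0.96), and Sox10, a neural crest and mammary factor, differed by -0.01 (adjusted p 0.999). Both are named for their role.

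Bmp7, Sostdc1, Rspo1 and Ptn, which encode secreted proteins, were among the 12 named genes of largest positive difference, a grouping made after their values were seen. Bmp7, a bone morphogenetic protein, spanned -0.29 to 2.32 (median 1.24, n = 9) in keratin-high and -3.63 to -1.33 (median -3.20, n = 9) in keratin-low tumors, without overlap (difference 3.78 ± 0.39 SE, adjusted p 7.37e-05). Sostdc1, a secreted antagonist of BMP and Wnt signals, spanned -1.83 to 0.43 (median -0.30) against -4.95 to 0.92 (median -3.99), and differed by 3.15 (adjusted p 0.0172). The overlap came from 1 keratin-low tumor, MSU_108R at 0.92, the next being at -3.41. Rspo1, a potentiator of Wnt signals, differed by 2.79 (adjusted p 0.0241), and Ptn, the growth factor pleiotrophin, by 2.70 (adjusted p 0.00156). Plch2, an intracellular phospholipase C, ranged from -0.33 to 2.95 against -2.93 to 1.64 and differed by 2.93 (adjusted p 0.00961). Wnt feedback targets as a list of 15 had none called in limma (2 at an unadjusted p under 0.05) and a median of 0.22, with Wif1, a secreted Wnt inhibitor, at 2.92 (adjusted p 0.0862). Of 15 Notch pathway genes, the ligand Jag1 was called (1.33, adjusted p 0.0353), a call lost when 1 tumor was left out in 11 of 20 cases, and the median was 0.07.

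Of 13 contractile genes of myoepithelial cells, 3 were called higher and none lower, 10 were positive and the median was 0.80. Within-slide medians ran from -0.55 to 1.55, the lowest on the slide of MSU_60L and MSU_42L4B, where only 6 of the 13 could be compared. Myl9, the regulatory light chain of smooth muscle myosin, spanned -3.45 to -1.02 (median -2.16) in keratin-high and -4.21 to -3.26 (median -3.77) in keratin-low tumors (difference 1.61, adjusted p 0.00502). Cnn1, calponin, ranged from -2.99 to -0.39 against -4.07 to -2.62 and differed by 1.81 (adjusted p 0.0137). Acta2, smooth muscle actin, ranged from -1.84 to -0.28 against -2.40 to -1.41 and differed by 1.07 (adjusted p 0.0238). All 3 overlapped between the groups and lay below the reference in every tumor of the 2 groups where they were measured. The middle tumor MSU_90R lay above the reference for Acta2 (0.87) and Cnn1 (0.79). Pericytes, arterial muscle and activated fibroblasts also express these 3 genes. Among 12 endothelial genes none was called (1 at an unadjusted p under 0.05), and the list mean spanned -1.78 to 0.56 in keratin-high and -1.70 to -0.75 in keratin-low tumors. The 0.56 belonged to MSU_60L, which lacked many spots. Only 5 of the 12 genes could be compared on its slide, and the next keratin-high tumor stood at -0.43. Among 22 fibroblast and mesenchymal genes none was called (5 unadjusted), the median was 0.20, and the list mean spanned -2.10 to -0.71 and -2.39 to -0.67. The part of these cells in the contractile genes was not tested.

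Squamous differentiation genes mostly had positive differences, with a wide spread between keratin-high tumors. Of 29 tested, 2 were called higher and none lower, while 26 were positive, 13 had an unadjusted p under 0.05, and the median was 0.94. The median was 0.59 without MSU_56R. Within slides the median ran from -0.07 to 3.02. Ly6d, a surface protein of keratinocytes, spanned -1.63 to 1.14 (median -0.97) in keratin-high and -4.57 to -0.55 (median -3.57) in keratin-low tumors (difference 2.53, adjusted p 0.0280). Sfn, the epithelial 14-3-3 protein, differed by 1.26 (adjusted p 0.0243). Krt16, the suprabasal partner of the hyperproliferative keratins, ranged from -2.21 to 3.72 against -2.98 to -1.57 and differed by 2.79 without passing the test (adjusted p 0.11). Krt6b, its partner, ranged from -3.51 to 5.23 against -3.21 to 0.22 (0.94, adjusted p 0.90), and Dmkn, the secreted protein dermokine, from -4.72 to -0.19 against -5.26 to -4.24 (2.15, adjusted p 0.0567). S100a14 (2.64, adjusted p 0.00502), a calcium-binding protein of epithelia, and Padi3 were higher outside the list. Krt42, a type I keratin named after its values were seen, differed by 1.87 (adjusted p 0.00772). The values of Krt42 and Krt16, type I keratins like Krt14 and Krt17, and of Krt6b, a type II keratin like Krt5, are uncertain because they share sequence with the score genes. In a list of 19 skin and hair follicle genes none was called (3 unadjusted), and the median was 0.02.

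The luminal keratin and the milk gene lists had negative medians and the hormone-sensing list a positive one. Of 20 luminal keratin and junction genes none was called (6 unadjusted), 16 were negative and the median was -0.17 (-0.08 without MSU_117R). Krt19 and Krt7, keratins of ductal cells, went opposite ways at 1.21 (adjusted p 0.25) and -1.03 (adjusted p 0.37). Of 18 alveolar and milk genes none was called (6 unadjusted), and the median was -0.41 (-0.22 without MSU_117R). Trf, the iron carrier transferrin of milk, spanned -3.61 to -0.39 (median -2.78) in keratin-high tumors, against a median of -0.47 in keratin-low tumors (difference -2.03, adjusted p 0.0781). Of 12 hormone-sensing genes 1 was called higher, with a median of 0.65. This was Pgr, the progesterone receptor, at 0.22 to 2.31 (median 1.06) in keratin-high and -0.09 to 0.45 (median 0.04) in keratin-low tumors (difference 1.01, adjusted p 0.0321). It was well above background on 10 keratin-high but only 2 keratin-low arrays, which limits how low its level there can be read, and the call was lost when 1 tumor was left out in 11 of 20 cases. Cited1, a coactivator of hormone-sensing cells, differed by 2.21 (adjusted p 0.0653) and the estrogen receptor gene Esr1 by 0.48 (adjusted p 0.73).

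Lists for proliferation, immune cells and other host cells held no called gene. Among 24 cell division genes and 27 interferon-responsive genes none had even an unadjusted p under 0.05, and the medians were -0.04 and 0.06. The same held for 14 T and NK cell genes (median 0.02), 8 B cell genes (0.19), 15 macrophage genes (-0.08) and 12 skeletal muscle genes (0.02). All 12 adipocyte genes had positive differences with a median of 0.51, none was called (2 unadjusted), and their mean spanned -3.36 to -0.34 in keratin-high and -3.49 to -1.39 in keratin-low tumors, so the ranges overlapped. Without MSU_117R that median was 0.24, and without MSU_122Rb 0.34. The mean of -0.34 belonged to MSU_60L, which lacked many spots. Only 2 of the 12 genes could be compared on its slide, and the next keratin-high tumor stood at -0.80. The part of adipocytes in the differences above was not tested. Of 15 hypoxia and glycolysis genes none was called (3 unadjusted), with a median of 0.18.

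**Figure D3:**
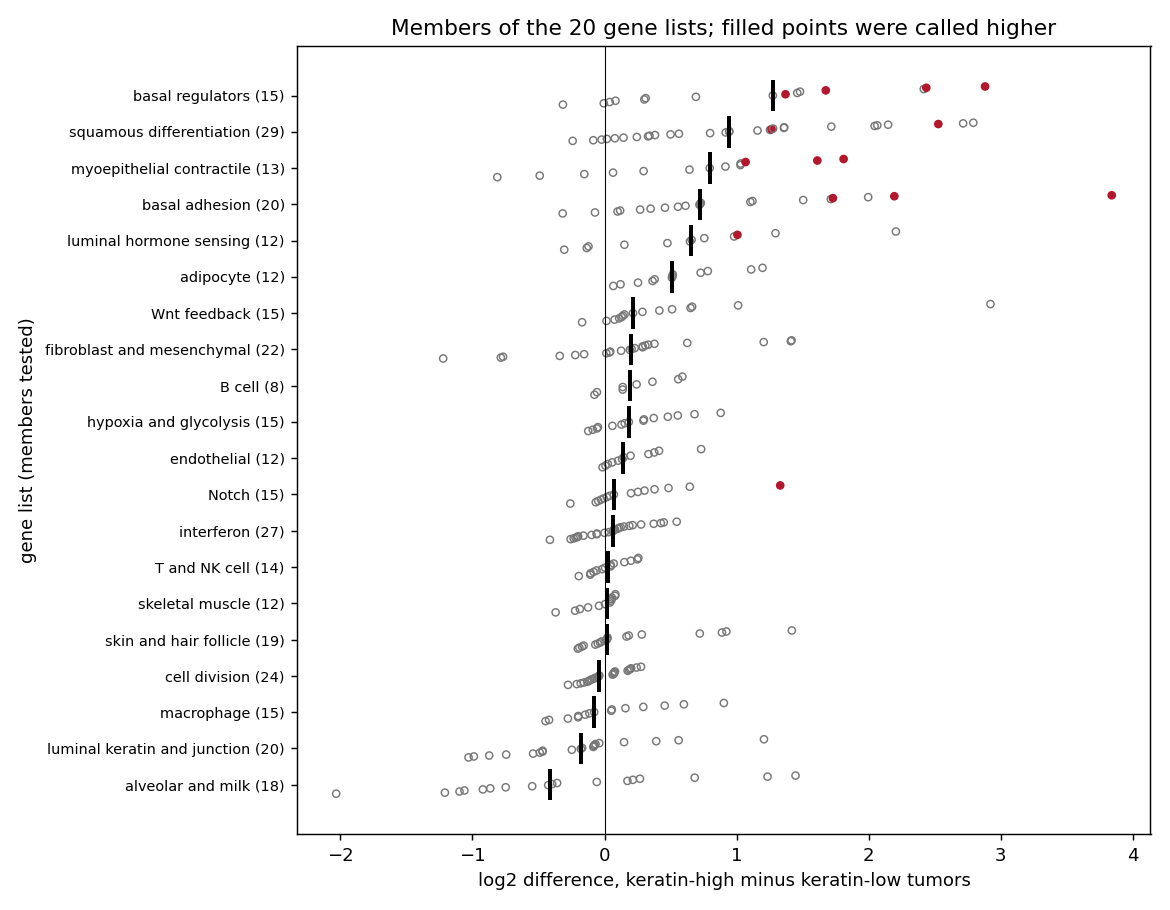
Log2 difference between keratin-high and keratin-low tumors (horizontal axis) for each tested member of the 20 gene lists (rows, with the number tested), ordered by the list median (black bar); filled red points passed an adjusted p of 0.05. The basal regulators (median 1.27), squamous (0.94), contractile (0.80) and adhesion (0.72) lists lie to the right, and the alveolar list (-0.41) lies farthest left.

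The genes called lower in keratin-high tumors were led by Met, the receptor tyrosine kinase for hepatocyte growth factor, and Capza2, a subunit of the actin capping protein. Met spanned 0.02 to 4.29 (median 0.86) in keratin-high tumors and 2.47 to 5.55 (median 4.58) in keratin-low tumors, and differed by -3.17 ± 0.48 (SE, n = 10 and 10, adjusted p 0.00309). Tumor MSU_122Rb, at 4.29, was the only keratin-high tumor above 1.36. Capza2 spanned -0.91 to -0.00 (median -0.29, n = 9) against -0.42 to 4.86 (median 2.69), and differed by -2.95 ± 0.55 (SE, adjusted p 0.0189). Except for MSU_108R at -0.42, every keratin-low tumor lay above all keratin-high tumors.

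Met and Capza2 are neighbours on chromosome 6 (mm9 probe positions 17503299 to 17503358 and 17615761 to 17615820), and the genes within 3 Mb were therefore examined after these values were seen. Tes, a focal adhesion protein, spanned 0.66 to 6.58 (median 1.55) in keratin-high and 1.33 to 6.39 (median 5.09) in keratin-low tumors (difference -2.63, adjusted p 0.11). Cav2, a caveolin, differed by -2.16 (adjusted p 0.32), St7 by -1.81 (adjusted p 0.20) and Mdfic, an inhibitor of MyoD family factors, by -1.48 (adjusted p 0.15), none past the test. Cav1, which lies among them, differed by -0.48 (adjusted p 0.81), and Wnt2 and Cftr, which lie beyond St7, by -0.02 and 0.01. The Wnt2 probe was well above background on only 3 keratin-high and 2 keratin-low arrays, so its small difference says little. High levels were not shared by all of these genes in each tumor. Tumor MSU_122Rb had Met at 4.29, Tes at 6.58 and Cav2 at 4.44 but Capza2 at -0.42. Naa38, 1299 kb from Met and named for its value in this tumor, stood at 5.51 there. Between the groups Naa38 differed by -0.45 (adjusted p 0.96). Of the middle tumors, MSU_82L, MSU_71L and MSU_40R4A had Met at 4.92 to 5.18 and Capza2 at 3.61 to 4.28, as high as in keratin-low tumors. In the 12 spindle cell tumors Met spanned 0.54 to 4.97 (median 4.10). Copy number was not measured on these arrays.

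**Figure D4:**
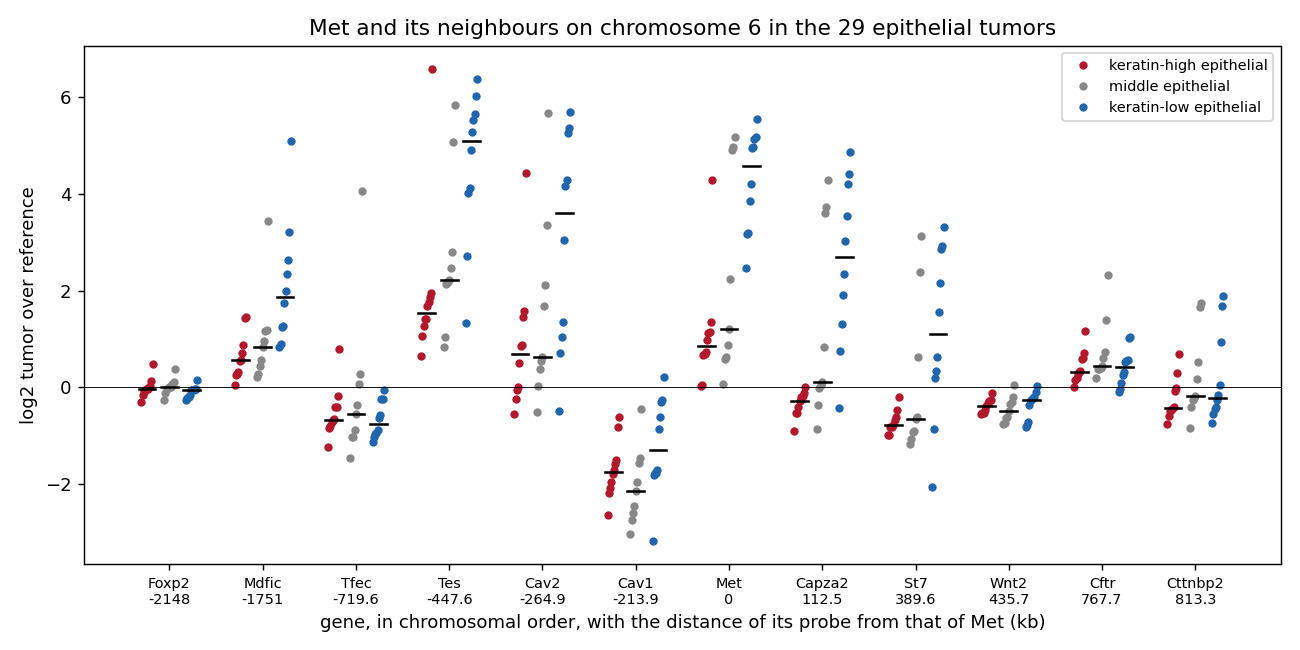
Log2 ratios of Met and 11 genes picked from those within 3 Mb of it in the 29 epithelial tumors, in chromosomal order with the distance of each probe from that of Met in kb. Other array genes of the window are not drawn. Points are tumors, colored by group, and bars are medians. The medians of Met are 0.86 in keratin-high and 4.58 in keratin-low tumors, the middle tumors lie in both ranges, and Cav1, Wnt2 and Cftr between or beside the shifted genes differ by less than 0.5. Wnt2 was well above background on few arrays of the groups.

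The other named genes called lower had smaller differences. Prxl2a, a peroxiredoxin-like protein, differed by -1.34 (adjusted p 0.0292), Shf, an SH2 adaptor, by -1.24 (adjusted p 0.0487), and Pik3r3, a regulatory subunit of phosphoinositide kinase, by -1.04 (adjusted p 0.0290). Stambpl1, a deubiquitinase, ranged from 0.27 to 1.65 against 1.20 to 3.24 and differed by -1.15 (adjusted p 0.0349). Its probe lies beside that of Acta2 on chromosome 19, a gene that was higher in keratin-high tumors. Chka, choline kinase, differed by -0.87 (adjusted p 0.0232), Sfxn5, a mitochondrial carrier, by -1.01 (adjusted p 0.0405), Trim46, a microtubule-associated protein, by -0.90 (adjusted p 0.0346), and Prtn3, a neutrophil protease, by -0.94 (adjusted p 0.0392). Cox4i1, a subunit of cytochrome c oxidase (-0.71, adjusted p 0.0319), and D8Ertd738e (-0.79, adjusted p 0.0280) complete the 12 named. The transcripts 1110008P14Rik (-1.12, adjusted p 0.0421) and 1810019D21Rik (-1.06, adjusted p 0.00772), outside the naming rule, were also called lower with differences beyond that of Pik3r3. Each of the 10 named genes after Met and Capza2 overlapped between the groups. The calls of Shf and Prtn3 were lost when 1 tumor was left out in 16 of 20 cases, that of Sfxn5 in 15, Trim46 in 13, and Stambpl1 and Cox4i1 in 12.

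The same genes were then read in the 21 tumors that the groups did not use, the 9 middle epithelial and 12 spindle cell tumors, as the slope of each gene on the keratin score with histology as a covariate. Of these tumors, MSU_M56LA shares a label number with the keratin-high MSU_56R. In the 21 tumors 308 genes (1.25%) rose and 63 (0.257%) fell with the score at an adjusted p under 0.05 in limma, and 53.3% of all genes had a positive slope. Of the 75 genes called higher, 72 (96%) had a positive slope and 21 rose, whereas of the 19 called lower 16 had a negative slope and none fell (4 at an unadjusted p under 0.05). Col17a1 rose by 1.11 per log2 unit of score (adjusted p 0.000318), Padi3 by 0.93 (0.0021), Perp by 0.92 (0.00109), Trim29 by 0.79 (0.00308) and Jag1 by 0.56 (0.00414), each an adjusted p in parentheses. Bmp7 (slope 0.46, adjusted p 0.27), Snai2 (0.41, adjusted p 0.23), Irx4 (0.25, adjusted p 0.68) and Met (-0.23, adjusted p 0.83) did not pass. Ptn (0.10, adjusted p 0.95) and Pgr (0.01, adjusted p 0.99) had slopes near 0. Rspo1 (-0.02, adjusted p 0.99) and Prxl2a (0.17, adjusted p 0.70) had slopes opposite in sign to their differences between the groups.

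Of the 29 squamous genes 18 rose, all 29 slopes were positive and the median was 0.50. Krt6b (1.36), Sprr1b (1.31), a cornified envelope protein, and Krt16 (1.16) had the steepest slopes among them, with adjusted p-values of 1.61e-07, 2.7e-06 and 1.61e-07. Of the 20 adhesion genes 9 rose, with a median slope of 0.53, including Lama3 (0.76, adjusted p 0.000107) and Lamb3 (0.57, adjusted p 0.0031). Of the 15 basal regulators and the 13 contractile genes none rose (6 and 3 at an unadjusted p under 0.05), with medians of 0.13 and 0.07. Whether the 2 sets of tumors differed in these effects was not tested. The slopes rested on the spindle cell tumors MSU_M33R and MSU_M84R, whose scores of 3.32 and 2.91 stood far above the others. Without both, a choice made after seeing the data, 2 genes rose and none fell (3333 at an unadjusted p under 0.05). All 75 higher genes then had a positive slope, against 56.4% of all genes, but none of the 75 rose at an adjusted p under 0.05. Of the 19 lower genes, 12 then had a negative slope. In the 9 middle tumors alone none passed (982 unadjusted) and 71 of the 75 were positive, against 49.8% of all genes.

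**Figure D5:**
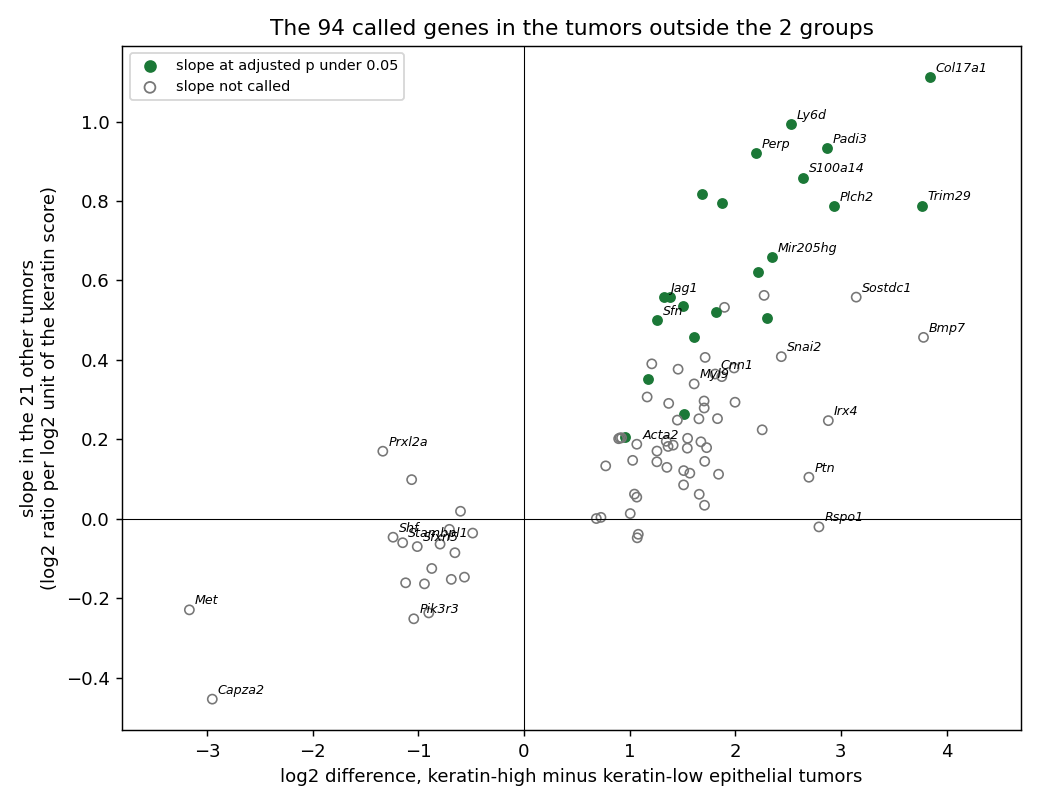
For the 94 called genes, the log2 difference between keratin-high and keratin-low epithelial tumors (horizontal axis) against the slope on the keratin score in the 21 other tumors (vertical axis, log2 ratio per log2 unit of score); filled points have a slope past an adjusted p of 0.05. Of the 75 genes on the right, 72 have a positive slope and 21 are filled, and no gene on the left is filled.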

How the data were processed

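RNA of 41 tumors was hybridised on Agilent 2-color arrays. The authors deposited scanner files with spot intensity and background in both channels, processed signals and flags (Agilent Feature Extraction 8.5.1.1 in the submitters' notes, 11.0.1.1 and 10.5.1.1 per the file headers), and a matrix of normalized log2 ratios, used as an alternative. Labels give Cy5 for the tumor and the methods give it for the reference. Of 4 Y-linked genes, absent from female tissue, Cy3 was the brighter channel on 41 of 41 arrays for Ddx3y and for Eif2s3y, on 32 for Uty and on 25 for Kdm5d, and for Uty and Kdm5d the log2 ratios lay between -0.76 and 0.32. Because of Ddx3y and Eif2s3y, and because Cy3 signals varied less between arrays (median SD 0.535 against 0.847), ratios were taken as Cy5 tumor over Cy3 reference. This is opposite to the methods.

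With limma 3.58.1 in R 4.3.3, intensities were corrected by normexp (offset 50) and loess normalized within arrays. Control and outlier spots had weight 0, and outliers were left missing. Of 39429 probes, 32125 passed a minimum signal of 10 in each channel on 80% or more of the arrays, and each gene was read from its probe of highest mean signal. Gene names came from the GRCm38.p6 gene table where it held them, 19019 of 24554 genes. Tests used lmFit and eBayes with Benjamini-Hochberg adjustment over all genes at 0.05, and were tested on simulated data. The score used the processed signals. Named genes are the 12 called higher and 12 lower of largest difference, limited to symbols of the gene table other than Rik, Gm and LOC names and to probes bright over background on at least 8 of 10 arrays of the brighter group, the 3 members of smallest p in each of 20 lists (343 genes, 337 tested), the score genes and Trp53. Exceptions are marked. Members and lists were chosen with earlier results of these data known. Alternatives changed correction, normalization, filter, probe, score, group size, slide, covariates and samples. The number of arrays limits the precision. Of the processed matrix, 3 columns matched scanner files of other labels.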

Additional observations from a re-analysis of the deposited data

Results flagged for a closer look

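Of 204 groups of values examined, 18 (8.82%) held a tumor whose gap to the nearest other, divided by the range of its group, exceeded Dixon's 95% critical value. Chance flags about 1 in 20 groups. No cause was tested for any of them.

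Among keratin-low tumors, MSU_108R stood highest for Sostdc1 (0.92, next -3.41, gap over range 0.738), Cited1 (1.04, next -2.36, 0.721), Chka (1.98, next 1.02, 0.599) and the mean of the hypoxia and glycolysis list (0.48, next -0.18, 0.558). Tumor MSU_109L stood highest for Rspo1 (-0.09, next -1.89, 0.619) and the adipocyte mean (-1.39, next -2.45, 0.506). Tumor MSU_42L4B stood highest for the cyclin gene Ccna2 (0.96, next 0.27, 0.56), the endothelial gene Pecam1 (0.02, next -0.80, 0.487) and the muscle gene Mylpf (-0.22, next -1.69, 0.467).

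Among keratin-high tumors, MSU_122Rb stood highest for Met (4.29, next 1.36, 0.687). Tumor MSU_17R stood highest for Wnt4 (0.39, next -0.90, 0.555) and the lymphocyte protease gene Gzma (1.74, next 0.01, 0.614). Tumor MSU_117R stood highest for the hair follicle keratin Krt71 (-1.24, next -3.86, 0.626) and lowest for the Wnt antagonist Sfrp2 (-3.94, next -2.33, 0.532). Tumor MSU_60L, with many outlier spots, stood highest for Pecam1 (0.93, next -0.56, 0.618), Mylpf (-1.59, next -2.50, 0.47) and the mean of the hormone-sensing list (2.55, next 1.26, 0.52). Tumor MSU_101L4A stood highest for the B cell mean (2.38, next 1.14, 0.467).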

How the results depend on the processing

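Against 75 genes higher and 19 lower, the counts were 136 and 42 without background correction, 171 and 30 with processed signals of the scanner, 130 and 37 in the authors' matrix, 120 and 85 for a slope over all 29 epithelial tumors, and 139 and 59 at an adjusted p under 0.10. A random block for slide gave 180 genes in all, 51 lower and 1.3e+02 higher, whereas slide as a fixed block gave 54 and 13, with 47 of the 94 genes called. Fewer were called with 14 tumors a side (16 and 3), with onset and regimen as covariates (34 and 8) and with 1 tumor per shared label number (31 and 4). With 8 tumors a side 47 were higher. When outlier spots were kept instead of left missing, 54 were higher and 16 lower, and 67 of the 94 genes called passed. With median centring 2 were lower, with scan session as a block 29, and without MSU_60L, MSU_122Rb and MSU_42L4B, a choice made after seeing the data, 48. Groups from Krt5 alone gave 209 and 141, from Krt17 alone 21 and 4, and from Krt14 alone 0 and 0 in limma (916 at an unadjusted p under 0.05). With Krt14 alone, which kept 7 of 10 tumors in each group, the median was 0.44 for basal regulators, 0.22 for contractile genes and -0.30 for hormone-sensing genes, and Pgr turned to -0.27. The basal regulator median was 1.65 in the authors' matrix. Leaving out 1 tumor gave 43 (without MSU_11R) to 133 (without MSU_108R) higher and 4 (without MSU_56R) to 64 (without MSU_108R) lower. The count of higher genes moved by over 1.5 times without MSU_11R, MSU_56R (46), MSU_13L (48), MSU_107R (49), MSU_65R (49) and MSU_108R, that of lower genes also without MSU_66L, MSU_117R, MSU_117L, MSU_11L, MSU_122Rb, MSU_80L, MSU_109L, MSU_22R and MSU_92R. The causes were not tested.

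All 94 called genes kept their direction in each setting except with Krt14 alone, where 92 did. They were picked in these same tumors and most settings reuse the same arrays, so a kept direction is no second test. Of the 94 calls, 54 were kept with median centring and 63 with groups from the score on normalized ratios. The tumor channel alone kept 67, and 14 tumors a side kept 18. Col17a1, Bmp7, Trim29 and Snai2 passed in 41 of 42 planned settings, Krt14 alone being the exception. Fewer settings kept the calls of Shf and Prtn3 (13 of 42 each), Sfxn5 (15), Trim46 (18), Pgr (19), Cox4i1 (20), Krt15 (21), Jag1 (22) and Stambpl1 (24). Met passed in 39 of 42, and missed with Krt14 alone, Krt17 alone (adjusted p 0.0717) and slide as a fixed block (adjusted p 0.0512). Of 840 list medians recomputed, 836 moved by less than 1 SD between tumors, although leaving out 1 tumor moved several by over 1.5 times. That of hypoxia and glycolysis ranged from -0.01 (without MSU_17R) to 0.35 (without MSU_117R), of fibroblast genes from 0.05 (without MSU_13L) to 0.33 (without MSU_117R), of B cell genes from -0.03 (without MSU_101L4A) to 0.44 (without MSU_92R) and of Wnt feedback genes from 0.13 (without MSU_11R) to 0.37 (without MSU_17R). The lowest adjusted p of a label test in any alternative was 0.716.

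For the slopes outside the groups (308 rising, 63 falling), 13 fell in spindle cell tumors only, 0 rose and 0 fell in the middle tumors only (982 unadjusted), 31 fell with processed signals and 169 at an adjusted p under 0.10. With alternatives added after seeing the data, 2 rose and 0 fell without MSU_M33R and MSU_M84R, and 127 fell without MSU_M32L and MSU_M86R. Leaving out MSU_M33R gave 121 genes in all, 4 falling and 1.2e+02 rising, the lowest count of rising genes, leaving out MSU_M84R gave 167 and leaving out MSU_M76R the highest, 357. Falling genes numbered 2 (without MSU_M84R) to 159 (without MSU_M76R), also past 1.5 times without MSU_M33R, MSU_M128L (23), MSU_M54R (35) and MSU_M32L (139). The causes were not tested.

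The main test used neither pairing nor a block. The keratin groups were formed by a score, and only MSU_11L and MSU_11R share a label number across them, too few for a paired analysis. Slides, 7 of which held both groups, entered as a block in alternative fits only. Dim probes and the 10 arrays a group limit what can be shown.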

Other observations

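Enzymes that reduce, hydrolyse or conjugate foreign and endogenous compounds were among the genes called higher in keratin-high tumors. They were chosen after their values were seen and form no tested list. Besides Cbr2, these were Ephx1, the microsomal epoxide hydrolase, Ugt1a6b, a glucuronosyltransferase, and Cbr3, another carbonyl reductase. Ephx1 spanned -0.12 to 0.94 (n = 9) in keratin-high and -1.48 to -0.17 (n = 9) in keratin-low tumors, without overlap, and differed by 1.26 (adjusted p 0.00189, limma). Ugt1a6b spanned -2.61 to -0.35 against -3.69 to -2.71, also without overlap, and differed by 1.55 (adjusted p 0.00502). Genes of this locus share sequence, so its value is uncertain. Cbr3 overlapped between the groups and differed by 1.87 (adjusted p 0.0189).

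The complement proteases C1ra and C1s1 (difference 1.17 with adjusted p 0.0280, and 1.83 with adjusted p 0.0331), which lie next to each other on chromosome 6, the growth factor receptor Fgfr2 (1.35, adjusted p 0.0153) and the vasoconstrictor peptide Edn1 (1.35, adjusted p 0.0189) were higher as well. None of these 7 genes rose with the score at an adjusted p under 0.05 in the 21 other tumors, with slopes of 0.13 for Edn1 to 0.36 for Cbr3.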
